A study of Mus musculus with 3 samples.

Results

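In mouse gliomas built with the histone mutation of diffuse midline glioma, the cells in which the tumour suppressor gene Cdkn2a was counted most were compared with cells of the same tumours in which it was not counted at all. Cells were chosen by their Cdkn2a count. A cell was placed in the Cdkn2a-high class when it held 4 or more Cdkn2a UMIs and in the Cdkn2a-zero class when it held 0. A UMI, or unique molecular identifier, marks 1 captured RNA molecule. Of 9642 cell barcodes in the 3 libraries, 4520 passed the limits on quality and on transcripts of myelin and myeloid cells; 1019 of these were Cdkn2a-high and 1206 were Cdkn2a-zero. The other 2295 kept cells held 1 to 3 Cdkn2a UMIs and entered no test. Because the classes were cut on Cdkn2a itself, its own level in them is a description and it was left out of every test.

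The 3 tumours, numbered 1, 2 and 4 in the labels, grew in brains electroporated on postnatal day 1 or 2 with MADR constructs (mosaic analysis by dual recombination, which exchanges a cassette at a recombinase-ready locus). All carried the same 3 changes, H3f3a K27M, Pdgfra D842V and Trp53 R270H, in mice heterozygous for a Rosa26 membrane-tomato/membrane-GFP allele. The animals were 150, 106 and 149 days old for tumours 1, 2 and 4, and GFP+ cells were sorted from the microdissected tumours before droplet capture with the Chromium 3′ kit. There was 1 library per tumour, and no tumour of another genotype entered. The genotype is that of the tumour: the counts do not show that each cell carried the changes, and the matched high cell of tumour 2 held 0 UMIs of the vector element WPRE. The counts do not tell the introduced copies of H3f3a, Pdgfra and Trp53 from the endogenous ones.

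Cdkn2a makes 2 proteins from separate first exons that share later exons in different reading frames. Ink4a binds Cdk4 and Cdk6 and keeps the retinoblastoma protein active, which holds cells before S phase; Arf binds Mdm2 and so stabilises p53. Its neighbour Cdkn2b encodes a further inhibitor of Cdk4 and Cdk6. In many stem and progenitor cells the whole locus is held silent by Polycomb repressive complex 2 (PRC2) through methylation of lysine 27 of histone H3, the residue that the K27M mutation replaces. Since the kit reads the 3′ ends of transcripts, the counts do not tell Ink4a from Arf.

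On chromosome 4 of GRCm38, Cdkn2a (ENSMUSG00000044303) lies on the minus strand from 89274471 to 89294653, with the Arf start at 89294653 and the Ink4a start at 89282192 in GENCODE. Cdkn2b (ENSMUSG00000073802) follows on the same strand at 89306299 to 89311039. Mtap, an enzyme of methionine salvage, lies on the plus strand at 89137122 to 89181081 on the other side, and Dmrta1 at 89679436 to 89694772. The start regions of the 3 transcripts are shown because Cdkn2a and Cdkn2b, whose counts are compared here, read from separate promoters within one locus. Each window is from RefSeq (GRCm38.p6), holds 250 bases before and 50 after the RefSeq start, and is printed 5′ to 3′ on the minus strand; capitals mark the motifs found on either strand, which were GGGCGG (GC box), TGACGTCA (cyclic AMP response element), TTTCCCGC (E2F-type) and CACGTG (E box).
Cdkn2a, Arf start, chr4:89294570-89294869: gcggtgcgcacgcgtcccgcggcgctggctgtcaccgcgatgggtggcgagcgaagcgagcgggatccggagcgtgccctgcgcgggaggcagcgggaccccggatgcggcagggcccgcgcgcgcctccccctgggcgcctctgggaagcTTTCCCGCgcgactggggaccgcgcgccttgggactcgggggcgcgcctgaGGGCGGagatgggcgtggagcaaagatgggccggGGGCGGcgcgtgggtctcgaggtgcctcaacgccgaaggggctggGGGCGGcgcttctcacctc
Cdkn2a, Ink4a start, chr4:89282143-89282442: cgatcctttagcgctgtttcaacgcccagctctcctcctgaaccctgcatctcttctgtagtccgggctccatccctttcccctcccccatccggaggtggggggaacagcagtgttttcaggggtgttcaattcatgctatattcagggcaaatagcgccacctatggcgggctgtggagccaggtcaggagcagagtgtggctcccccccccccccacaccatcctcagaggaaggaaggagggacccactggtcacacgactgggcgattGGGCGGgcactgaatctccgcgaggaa
Cdkn2b, chr4:89310983-89311282: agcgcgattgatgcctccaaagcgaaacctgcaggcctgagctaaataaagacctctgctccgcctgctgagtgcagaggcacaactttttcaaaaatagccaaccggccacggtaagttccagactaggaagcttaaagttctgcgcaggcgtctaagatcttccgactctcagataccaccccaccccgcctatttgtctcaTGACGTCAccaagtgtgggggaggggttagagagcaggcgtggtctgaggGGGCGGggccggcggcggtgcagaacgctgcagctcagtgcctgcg
The Arf window had a GC content of 77.0%, 45 CpG dinucleotides, 3 GC boxes and 1 E2F-type motif. The Ink4a window had 60.3% GC, 12 CpG and 1 GC box, and the Cdkn2b window had 57.7% GC, 18 CpG, 1 GC box and 1 cyclic AMP response element. Over 32851 windows of the same length, the medians were 52.7% GC and 7 CpG, and 35.7% held a GC box, 1.07% the E2F-type motif, 1.79% the response element and 7.15% the E box, which was in none of the 3. A match is a run of letters and not a measured binding site. The Cdkn2a transcripts of 852 and 895 bases shared no run of 30 bases with Cdkn2b, so reads of one gene could not be counted as the other through such a run.

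Cdkn2a-high cells were common in tumours 1 and 4 and nearly absent from tumour 2. They were 561 of 2565 kept cells in tumour 1 (21.9%), 456 of 1778 in tumour 4 (25.6%) and 2 of 177 in tumour 2 (1.13%). Cdkn2a-zero cells numbered 623, 440 and 143 in tumours 1, 4 and 2. Over all kept cells Cdkn2a stood at 158, 205 and 44.6 CPM (UMIs of the gene per 1000000 UMIs) in tumours 1, 4 and 2, and the highest count in any cell was 21, 18 and 14 UMIs.

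**Figure D1:**
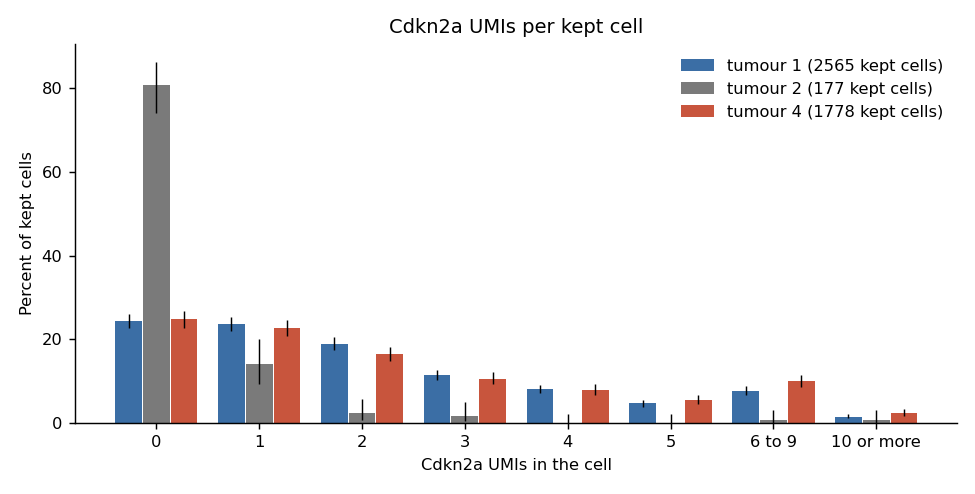
Percent of kept cells (y axis) by the number of Cdkn2a UMIs in the cell (x axis) in each tumour; bars are shares and lines exact 95% binomial intervals, which cover counting error only. Tumours 1 and 4 had like distributions with 21.9% and 25.6% of cells at 4 UMIs or more, while tumour 2 had most of its 177 kept cells at 0.

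Much of the split into classes follows from counting a gene at this level. If every kept cell of a tumour held Cdkn2a at that tumour's mean share of UMIs, Poisson counting at each cell's depth would give 441 cells at 0 in tumour 1, where 623 were observed, and 289 in tumour 4, where 440 were observed. It would give 514 cells with 4 or more UMIs in tumour 1, against 561 observed, and 434 in tumour 4, against 456. A count of 0 in a matched zero cell of median depth allows a level of up to 236 CPM in tumour 1 and 291 CPM in tumour 4, above the mean of all kept cells. The zero class is therefore a class of cells without a counted molecule, not of cells shown to lack the transcript. At the threshold, 292 cells of tumour 1 and 188 of tumour 4 held 3 UMIs, just outside the high class, and 206 and 140 held 4, just inside it.

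Cells of another type gave a background level, to which free RNA and doublets could both add; the 2 were not told apart. Among cells with at least 50 myeloid-gene UMIs per 10000, which should lack Cdkn2a from the tumour, 4 of 120 (3.33%) in tumour 1, 7 of 70 (10.0%) in tumour 4 and 2 of 457 (0.438%) in tumour 2 held 4 or more Cdkn2a UMIs. Any Cdkn2a UMI was present in 36.7%, 37.1% and 10.5% of them, against 75.7%, 75.3% and 19.2% of kept cells in tumours 1, 4 and 2. After each cell was thinned to 2000 UMIs the shares were 11.7%, 18.6% and 3.72% in myeloid cells and 26.7%, 31.0% and 6.21% in kept cells. The kept-cell share was higher in every tumour, by less in tumour 2.

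The libraries held 47120617, 15231673 and 53551127 UMIs for tumours 1, 2 and 4. The limits on myelin and myeloid genes removed most of tumour 2, where 1164 of 1548 cells that passed quality were over the myelin limit and 542 over the myeloid limit, some over both. Its 2 high cells held 6 Cdkn2a UMIs of 32805 and 14 of 4937. Both were rich in p53 target transcripts, with summed levels of 7194 and 53879 CPM against a median of 1641 and a maximum of 9342 CPM in the 143 zero cells; they held 16 and 3 UMIs of oligodendrocyte progenitor genes. Between libraries 37 cell barcodes were shared, 21 of them on high or zero cells, which the sequences of the barcodes alone do not resolve.

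Depth differed strongly between the classes, since a cell with more UMIs has more chances to reach 4. The median high cell held 17194 UMIs in tumour 1 and 16512.5 in tumour 4, and the median zero cell 9244 and 6682. Each high cell was therefore paired with the zero cell of its tumour nearest in depth, which left 293 pairs in tumour 1, 167 in tumour 4 and 1 in tumour 2. In the matched cells the medians were 12648 and 12686 UMIs for high and zero in tumour 1, and 10247 and 10293 in tumour 4. The matched pair of tumour 2 was the cell with 14 Cdkn2a UMIs and a zero cell with 11 UMIs of T and natural killer cell genes and 0 of progenitor genes. Counts were summed over the matched cells of each class and tumour, so that the test had 3 pairs of sums. Cells were not used as replicates in tumours 1 and 4, but the pair of tumour 2 set 1 cell against 1 cell. The values below are these sums for tumours 1 and 4, in CPM. Those of tumour 2 come from 1 cell each and are given where they bear on a result. With so few pairs, edgeR estimates the spread of each gene partly from all genes. A small p-value is therefore not a measure of how that gene varies between tumours.

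The matched cells of both classes in tumours 1 and 4 carried transcripts of glial progenitor genes. Transcripts of 18 progenitor genes summed to 3091 CPM in high and 3247 in zero cells of tumour 1, and to 4113 and 3486 in tumour 4, against 1315 and 1545 CPM in myeloid cells. Oligodendrocyte genes summed to 867 and 926 CPM in high and zero cells of tumour 1 and to 2659 and 3297 in tumour 4. Neuroblast and neuron genes summed to 1493 and 1292 CPM in tumour 1 and to 2048 and 1929 in tumour 4. Olig2, the lineage-defining transcription factor of oligodendrocyte progenitors, had a UMI in 81.2% of high and 81.6% of zero cells in tumour 1 and in 86.8% and 86.2% in tumour 4. The vector element WPRE had a UMI in 98.3% and 98.6% of high and zero cells in tumour 1 and in 98.2% and 98.8% in tumour 4; in myeloid cells it was in 90.0% and 67.1%. None of the 18 progenitor genes passed the test in either direction (edgeR, 0 of 18 also at an unadjusted p under 0.05, and 0 by DESeq2), and their median log2 fold change was -0.04.

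Few genes separated the matched classes. Of 10497 genes tested with edgeR's quasi-likelihood test, 29 were higher in the high cells (0.276%) and 63 were lower (0.600%), together 92 genes (0.876%), at a Benjamini-Hochberg adjusted p under 0.05, and 989 genes had an unadjusted p under 0.05. With tumours 1 and 4 alone, 156 of 11237 genes were higher (1.39%) and 127 were lower (1.13%). Of the 92 genes called with 3 tumours, 91 were in that fit and all 91 were called in the same direction. Both fits use the same sums of tumours 1 and 4, so this overlap is no independent check of the calls. Leaving out tumour 1 or tumour 4 left 0 edgeR calls, with 1 gene at an unadjusted p under 0.05 without tumour 1 and 2 genes without tumour 4. Each of these fits held 1 larger tumour and the single-cell pair of tumour 2. They therefore cannot show which tumour carries the differences. A DESeq2 Wald test on the same sums called 1 gene, Cdkn2b. Pairing the cells again with a different random seed called 21 genes higher and 73 lower, among them 14 of the 29 higher and 49 of the 63 lower genes; with tumours 1 and 4 alone the second pairing called 26 of the 29 and 59 of the 63. Of the genes named below, Resp18, Dll3, Stx8, Gfap, Qpct, Hist2h3c2, Hspb1, Spint2 and Pim1 were not called with the second pairing over 3 tumours.

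Cdkn2b was the gene most different between the classes. Its summed count in tumour 1 was 42 UMIs in zero and 208 in high cells, or 10.7 and 52.9 CPM. In tumour 4 it was 15 and 68 UMIs, or 7.71 and 34.8 CPM. The 2 high sums lay above both zero sums; in tumour 2 both single cells had 0. The level in high cells was 4.93 times that in zero cells in tumour 1 and 4.52 times in tumour 4, which gave 2.23 ± 0.23 on the log2 scale (SE, with adjusted p = 6.52e-18, edgeR). The edgeR value was smaller with no matching (1.46, adjusted p = 9.42e-07) and with all cells thinned to 3000 UMIs (1.38, adjusted p = 0.00589). The transcript was spread over cells: 108 of 293 high and 35 of 293 zero cells held it in tumour 1, and 49 and 14 of 167 in tumour 4.

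**Figure D2:**
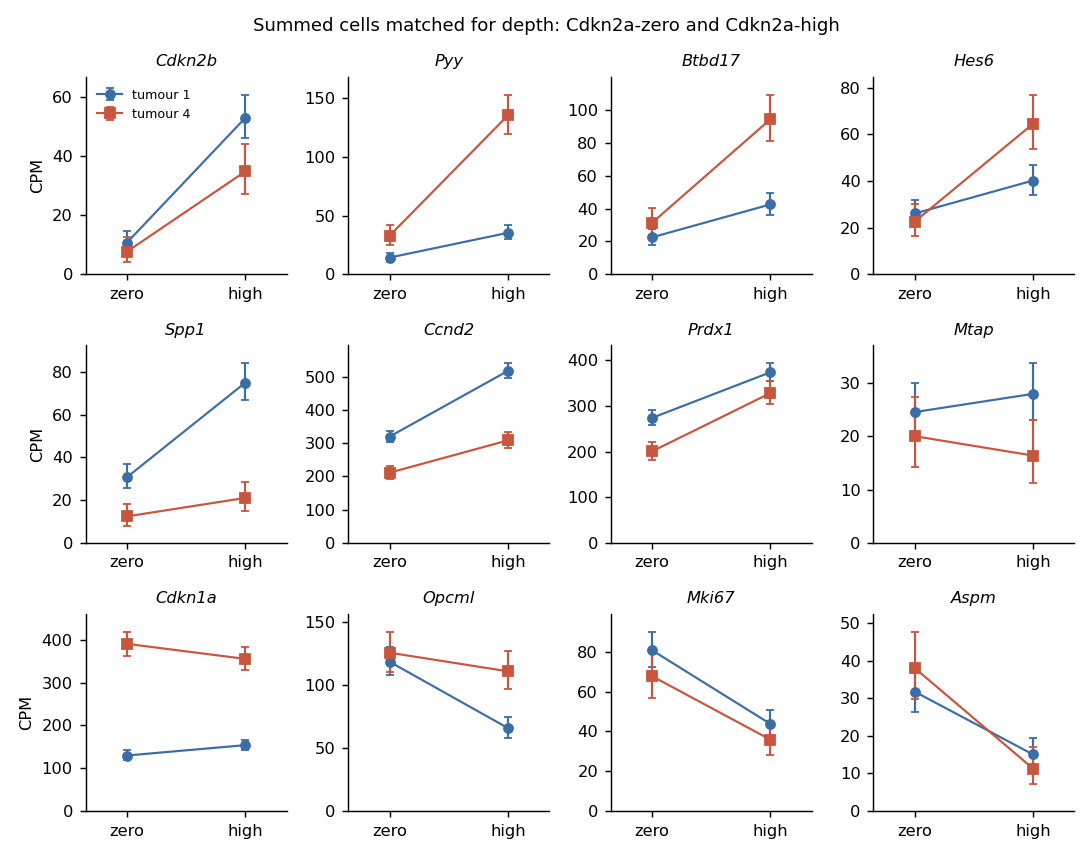
Level in CPM (y axis, from 0) in the summed matched cells of the zero and high classes (x axis) for 12 genes; each line joins the 2 sums of tumour 1 or tumour 4, and bars are exact 95% Poisson intervals of the counts. Cdkn2b rises in both tumours, from 10.7 to 52.9 and from 7.71 to 34.8 CPM, while Mtap and Cdkn1a move in opposite directions in the 2 tumours.

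The level of Cdkn2b rose unevenly with the Cdkn2a count. In all kept cells of tumour 1, without depth matching, Cdkn2b stood at 13.3 CPM in cells with 0 Cdkn2a UMIs, 18.9 with 1, 27.4 with 2, 29.2 with 3, 30.8 with 4, 35.7 with 5, 36.1 with 6 to 9 and 58.0 with 10 or more. In tumour 4 the same steps were 11.3, 15.5, 22.7, 19.3, 22.8, 27.03, 25.9 and 48.4 CPM. The steps were not all upward in tumour 4, 3 and 4 UMIs gave like levels in both tumours, and cells with 10 or more stood highest in both. The call held when cells were also matched for expression cluster (log2 fold change 1.86, adjusted p = 5.98e-11, edgeR) or for cycling class (2.08, adjusted p = 2.05e-14). It also held when cycling cells were left out, which left tumours 1 and 4 alone (2.01, adjusted p = 1.38e-11). Without the limits on myelin and myeloid genes tumour 2 contributed 46 pairs, and Cdkn2b stood at 12.8 CPM in its zero and 24.4 in its high cells, against 9.39 and 41.7 in tumour 1 and 7.09 and 27.8 in tumour 4 (log2 fold change 1.88, adjusted p = 0.0126). In that fit 3 of 13132 genes were called higher (0.0228%) and 160 lower (1.22%).

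**Figure D3:**
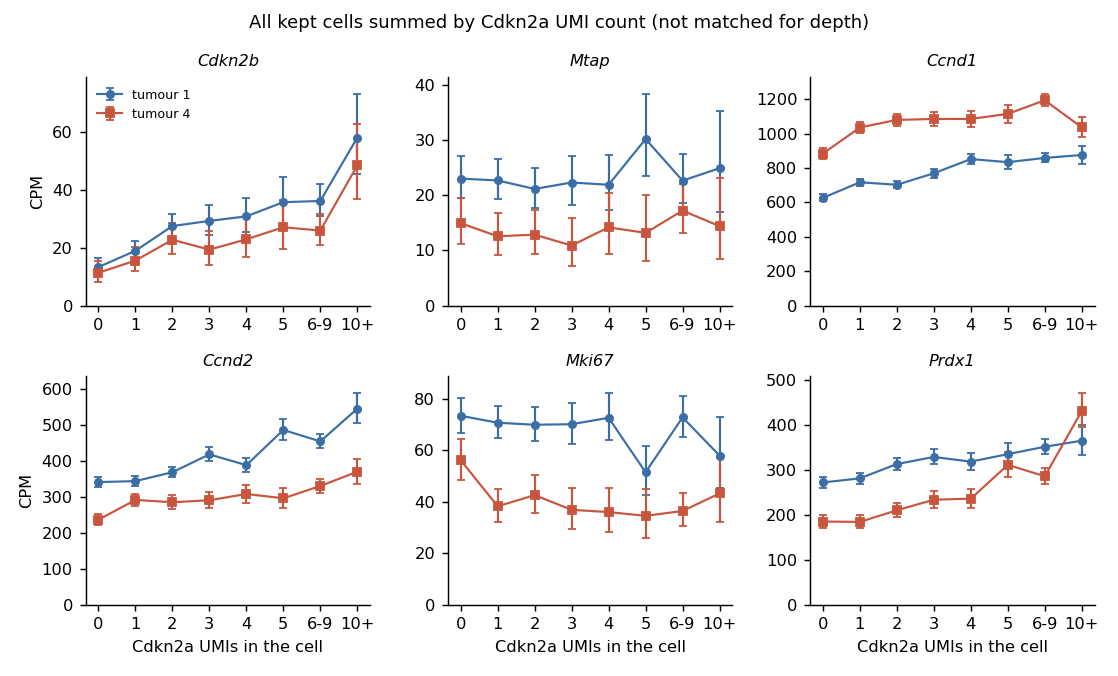
Level in CPM (y axis, from 0) of 6 genes over all kept cells summed by their Cdkn2a UMI count (x axis), not matched for depth; points are tumours 1 and 4 and bars exact 95% Poisson intervals. Cdkn2b climbs from 13.3 to 58.0 CPM in tumour 1 and from 11.3 to 48.4 in tumour 4, Ccnd2 and Prdx1 climb less steeply, and Mtap has no trend.

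Other genes around the locus did not share this difference. Mtap had 24.6 CPM in zero and 28.0 in high cells of tumour 1 and 20.04 and 16.4 in tumour 4 (log2 fold change 0.01 ± 0.23, adjusted p = 0.996). Of 5 neighbouring genes that were tested, Cdkn2b alone was called; Mtap, Klhl9, Mllt3 and Elavl2 were not. Among 16 listed activators of Ink4a and Arf none was called (0 higher and 2 lower at an unadjusted p under 0.05), and of 15 listed repressors 1 was, Id3.

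Id3, a helix-loop-helix protein that blocks the DNA binding of E proteins, went in opposite directions in the 2 tumours. It had 55.8 CPM in zero and 62.4 in high cells of tumour 1 and 176 and 69.1 in tumour 4 (log2 fold change -0.59, adjusted p = 0.00899). One zero cell of tumour 4 held 149 of the 342 UMIs behind the value of 176.

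Of the 3 D-type cyclins, the partners of Cdk4 and Cdk6 that Ink4a and the Cdkn2b protein oppose, Ccnd2 was called higher. Ccnd2 had 320 CPM in zero and 518 in high cells of tumour 1 and 211 and 309 in tumour 4; in tumour 2 the zero cell held 3 UMIs and the high cell 0. High sums exceeded zero sums within both larger tumours, but the high sum of tumour 4 lay below the zero sum of tumour 1. The log2 fold change was 0.59 ± 0.13 (adjusted p = 0.00223), and 0.48 (adjusted p = 0.115) when cells were also matched for cluster; over tumours 1 and 4 alone the cluster-matched value was 0.50 (adjusted p = 0.000181). In the 3-tumour fits without matching and with thinning to 3000 UMIs, Ccnd2 had the opposite sign (-0.40 and -0.21, neither called). Without the limits on myelin and myeloid genes, Ccnd2 stood at 99.5 CPM in the zero and 26.6 in the high cells of the 46 pairs of tumour 2, the opposite direction to tumour 1 (299 and 507 CPM) and tumour 4 (183 and 299 CPM), and was not called (0.17, adjusted p = 0.926). Ccnd1 had 630 and 900 CPM in tumour 1 and 859 and 1084 in tumour 4. It did not pass the test with 3 tumours (0.41 ± 0.18, adjusted p = 0.396) and passed it with tumours 1 and 4 (0.41, adjusted p = 4.49e-06). Ccnd3 had 134 and 123 CPM in tumour 1 and 115 and 139 in tumour 4 (0.02, adjusted p = 0.990). Ccnd2 alone was called among 18 tested cyclin, Cdk, Rb and E2F genes. Of the 18, 4 were higher and 5 lower in both tumours (30.5% and 27.8% of all genes were), and their median log2 fold change was -0.03.

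The kinase Cdk4 itself had 570 CPM in zero and 613 in high cells of tumour 1 and 384 and 420 in tumour 4 (log2 fold change 0.09, adjusted p = 0.929). Of the 6 other Cdk inhibitors tested, Cdkn2b was the one called. Cdkn1a, a p53 target that inhibits cyclin-Cdk complexes, had 129 and 154 CPM in tumour 1 and 390 and 355 in tumour 4 (0.18, adjusted p = 0.730), with opposite directions in the 2 tumours. Cdkn1b had 23.5 and 26.2 CPM in tumour 1 and 50.9 and 44.0 in tumour 4 (-0.04, adjusted p = 0.981). Cdkn2c, of the same family as Cdkn2b, had 68.6 and 51.7 CPM in tumour 1 and 46.8 and 33.3 in tumour 4 (-0.46 ± 0.16, adjusted p = 0.205).

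Genes of the Arf, Mdm2 and p53 pathway were not called, in tumours that carry a mutant Trp53, and 1 listed p53 target was. Mdm2, the ubiquitin ligase that Arf binds and itself a p53 target, had 38.4 CPM in zero and 37.4 in high cells of tumour 1 and 56.0 and 42.0 in tumour 4 (log2 fold change -0.06, adjusted p = 0.967). Trp53 had 131 and 131 CPM in tumour 1 and 115 and 99.3 in tumour 4 (-0.11, adjusted p = 0.909). Of 9 Arf, Mdm2 and p53 pathway genes tested with edgeR, 0 were called, 0 had an unadjusted p under 0.05, and 0 were called by DESeq2. Of 22 p53 targets tested 1 was called, Txnip, and their median log2 fold change was 0.04. In tumour 2, the 2 high cells held 63 and 72 Cdkn1a UMIs and 9 and 29 Mdm2 UMIs, of which the matched pair in the fit holds the second cell alone. Without the limits on myelin and myeloid genes, Cdkn1a stood at 674 CPM in the zero and 1424 in the high cells of the 46 pairs of tumour 2, against 189 and 150 in tumour 1 and 356 and 362 in tumour 4, and was not called (log2 fold change 0.24, adjusted p = 0.803).

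Txnip, an inhibitor of thioredoxin, was lower in tumour 4 and not in tumour 1. It had 4.86 CPM in zero and 5.34 in high cells of tumour 1 and 100 and 26.6 in tumour 4 (log2 fold change -1.45, adjusted p = 5.79e-07). One zero cell held 47 of the 195 UMIs in tumour 4, and a cluster of 19 cells of that tumour led by Txnip gave 10 matched zero cells and 0 matched high cells. Matched also for cluster, the value was -0.44 (adjusted p = 0.858).

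Genes of mitosis were lower in the depth-matched high cells of tumours 1 and 4. Of 33 G2 and M phase genes tested, 13 were lower, none was higher, and 27 were lower in both tumours 1 and 4, where 27.8% of all genes were. Their median log2 fold change was -0.61, against -0.01 over all genes. In the single-cell pair of tumour 2 they summed to 1 UMI in the zero cell and 47 in the high cell, the opposite direction. Mki67, the proliferation marker, had 80.9 CPM in zero and 43.8 in high cells of tumour 1 and 67.8 and 35.8 in tumour 4 (-0.92 ± 0.16, adjusted p = 8.48e-06). Top2a, the topoisomerase that untangles chromosomes, had 250 and 132 CPM in tumour 1 and 218 and 143 in tumour 4 (-0.81 ± 0.13, adjusted p = 5.54e-07). Both high sums lay below both zero sums for these 2 genes.

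Other genes of the spindle, the kinetochore and mitotic protein turnover were lower too. Aspm, a spindle pole protein, had 31.7 and 15.02 CPM in tumour 1 and 38.0 and 11.3 in tumour 4 (log2 fold change -1.32 ± 0.23, adjusted p = 6.71e-06). Knstrn had 83.4 and 41.5 CPM in tumour 1 and 72.4 and 37.9 in tumour 4 (-1.003, adjusted p = 6.03e-07). Cenpf, a kinetochore protein, had 153 and 101 CPM and 198 and 102 CPM (-0.77, adjusted p = 4.36e-06). The high sums lay below the zero sums of both tumours for Aspm, Knstrn and Cenpf. Sgol1, which protects centromeric cohesin, had 40.9 and 20.6 CPM and 33.4 and 14.3 CPM (-1.09, adjusted p = 0.000137). Plk4, the kinase that starts centriole duplication, had 29.4 and 21.4 CPM and 40.6 and 12.8 CPM (-0.92, adjusted p = 0.00444). Ube2c, a ubiquitin-conjugating enzyme of the anaphase-promoting complex, had 263 and 201 CPM and 343 and 148 CPM (-0.78, adjusted p = 1.09e-06).

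Few genes of DNA replication were called. Of 30 S phase genes tested, 2 were lower, Dtl (log2 fold change -0.63, adjusted p = 0.0132) and Hells (-0.87, adjusted p = 0.000361), none was higher, and the list median was -0.18. The median was 0.14 with 1 gene called higher when cells were also matched for cluster, 0.12 with 0 called by edgeR (2 higher and 1 lower at an unadjusted p under 0.05) when matched for cycling class, and -0.51 with 2 of 24 called lower in non-cycling cells. The cycling class and the non-cycling cells were chosen by these same genes together with the G2 and M phase genes. Dbf4, the activator of the replication kinase Cdc7, had 35.6 and 22.9 CPM in tumour 1 and 58.6 and 15.4 in tumour 4 (-1.14, adjusted p = 4.36e-06). Hmgn2, a nucleosome-binding protein, had 287 and 184 CPM and 222 and 162 CPM (-0.59, adjusted p = 0.00134). The chromatin factor Atad2 (-0.90, adjusted p = 0.00151), the Max partner Mxd3 (-0.93, adjusted p = 0.0108) and the checkpoint protein Mad2l1 (-0.74, adjusted p = 0.0226) were lower as well.

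These cell cycle differences depended on how depth was handled and on which cells were paired. In the depth-matched cells, thinned to 2000 UMIs, cells with 5 or more UMIs of the S, G2 and M phase genes were 34.5% of high cells (101 of 293, 95% interval 29.0 to 40.2%) and 49.5% of zero cells (145 of 293, 43.6 to 55.4%) in tumour 1. In tumour 4 they were 26.9% (45 of 167, 20.4 to 34.3%) and 49.7% (83 of 167, 41.9 to 57.5%). Over all high and zero cells, not matched, the shares were 47.1% (264 of 561) and 44.0% (274 of 623) in tumour 1 and 36.6% (167 of 456) and 41.1% (181 of 440) in tumour 4. The difference in tumour 1 thus had the opposite sign without matching. In the matched pair of tumour 2 the high cell held 5 or more such UMIs and the zero cell did not. An exact two-sided sign-flip test over 3 tumours cannot go below a p of 0.25.

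Matching took zero cells from the deep end of their class and high cells from the shallow end of theirs. The cycling share of high cells moved from 47.1% to 34.5% in tumour 1 and from 36.6% to 26.9% in tumour 4 with matching, and that of zero cells from 44.0% to 49.5% and from 41.1% to 49.7%. In tumour 1 a cluster led by Hist1h2ap, Tk1 and Rrm2 gave 71 matched zero and 34 matched high cells, and in tumour 4 a cluster led by Top2a, Dtl and Uhrf1 gave 36 and 8. With no matching the median of the G2 and M phase genes was 0.09, and with all cells thinned to 3000 UMIs it was 0.23; with edgeR 0 of 33 were called in either fit, and 2 had an unadjusted p under 0.05, both higher. Matched for cluster the median was 0.06, and matched for cycling class -0.08, again with 0 of 33 called by edgeR. Mki67 then had a log2 fold change of -0.24 (adjusted p = 0.904) matched for cluster and of -0.42 (adjusted p = 0.533) matched for cycling class, and Top2a of -0.11 (adjusted p = 0.984) matched for cluster. The S, G2 and M phase genes themselves defined the cycling class, and clusters were drawn from expression with only Cdkn2a left out. A smaller difference in these genes after such matching was therefore partly set by the pairing.

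**Figure D4:**
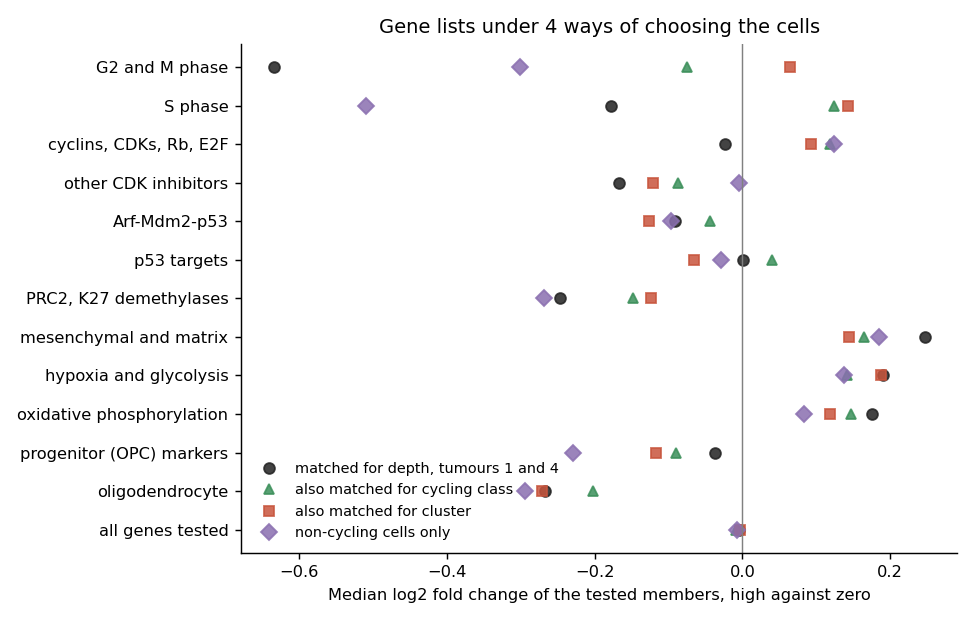
Median log2 fold change, high against zero (x axis), of the tested members of 12 gene lists and of all genes tested (y axis), in tumours 1 and 4 matched for depth and in 3 fits that also matched cycling class or cluster or kept non-cycling cells only. The cycling-class and cluster fits held 3 tumours, and the non-cycling fit held tumours 1 and 4. The G2 and M phase list moves from -0.63 to near 0 when cycling class or cluster is matched, and all genes tested stay at 0. Cycling class was defined by the S, G2 and M phase genes, so choosing cells by it acts on those lists directly.

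Cluster matching called 7 genes higher (0.0689% of 10158) and 9 lower (0.0886%), and cycling-class matching called 8 higher (0.0767% of 10425) and 18 lower (0.173%). Non-cycling cells alone gave 38 higher (0.393% of 9677) and 65 lower (0.672%), in a fit of tumours 1 and 4, since tumour 2 gave 0 pairs there. In tumours 1 and 4 the depth-matched cells gave 156 higher and 127 lower, against 29 and 63 with 3 tumours. Of the 92 genes called in depth-matched cells, 8 were called in the same direction with cluster matching, 16 with cycling-class matching and 18 in non-cycling cells. Cdkn2b was among them in all 3 fits. The 8 of cluster matching were Cdkn2b, Pyy, Stx8 and Qpct, higher, and Opcml, Cxcl10, Id3 and Hspb1, lower, so no other gene named here as higher or lower was called there in that direction.

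Among the higher genes outside the locus, Pyy, which encodes the peptide hormone peptide YY, had 14.3 CPM in zero and 35.4 in high cells of tumour 1 and 32.9 and 135 in tumour 4 (log2 fold change 1.70 ± 0.18, adjusted p = 2.86e-17). One high cell of tumour 4 held 66 of its 264 UMIs. The call held with cluster matching (1.02, adjusted p = 8.40e-05) and was lost in non-cycling cells (0.24, adjusted p = 0.787).

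Btbd17, Hes6 and Dll3 were also higher. Btbd17 had 22.5 and 42.5 CPM in tumour 1 and 31.3 and 94.2 in tumour 4 (log2 fold change 1.21, adjusted p = 1.08e-08), and Hes6, a helix-loop-helix factor of neurogenesis, had 26.1 and 40.2 CPM and 22.6 and 64.5 CPM (0.96, adjusted p = 0.00011). For both genes the high sums lay above both zero sums. Dll3, a Notch ligand relative that acts within the cell, had 7.42 and 10.7 CPM and 8.22 and 35.8 CPM (1.27, adjusted p = 0.00451), with 29 of the 70 UMIs of the tumour 4 high cells in 1 cell. Btbd17 was not called with cluster matching (0.44, adjusted p = 0.683) and was called in non-cycling cells (1.14, adjusted p = 2.89e-06). Hes6 lost its call with cluster matching (0.44, adjusted p = 0.713), with cycling-class matching (0.65, adjusted p = 0.133) and in non-cycling cells (0.56, adjusted p = 0.221), and Dll3 lost its call in all 3 as well.

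A few mesenchymal and matrix genes were higher in the high cells. Of 18 mesenchymal and matrix genes tested 2 were higher and none lower, 12 were higher in both tumours 1 and 4 (30.5% of all genes were), and the median log2 fold change was 0.21. Spp1, the secreted phosphoprotein osteopontin, had 30.7 and 75.1 CPM in tumour 1 and 12.3 and 21.0 in tumour 4 (1.15, adjusted p = 1.09e-06), with 51 of the 295 high-cell UMIs of tumour 1 in 1 cell; it was called with cycling-class matching and not in non-cycling cells (0.52, adjusted p = 0.351). S100a11, a calcium-binding protein, had 53.2 and 77.9 CPM and 108 and 159 CPM (0.54, adjusted p = 0.0211; -0.13 and not called with all cells thinned to 3000 UMIs). With tumours 1 and 4 alone, S100a6, S100a10, Timp1 and Emp3 were called as well. Gfap, the astrocyte filament protein, had 75.5 and 124 CPM and 214 and 300 CPM (0.56, adjusted p = 0.0036). It was the one astrocyte gene called of 13 tested, of which 3 were higher and 5 lower in both tumours, with a median of -0.04. Its call was lost with a second pairing (0.42, adjusted p = 0.089), cluster matching (0.32, adjusted p = 0.661), cycling-class matching (0.51, adjusted p = 0.085), 6 or more UMIs as high (0.31, adjusted p = 0.598) and stricter limits (0.37, adjusted p = 0.596), and its direction turned without matching (-0.44).

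Myeloid cells also express Spp1. Summed myeloid markers stood at 229 CPM in high and 240 in zero cells of tumour 1 and at 143 and 162 in tumour 4, against 30535 and 29181 in myeloid cells. The part of myeloid RNA in the Spp1 value was not tested beyond these sums.

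Prdx1 and Srxn1, 2 enzymes of the peroxide defence controlled by the factor Nrf2, were both higher. Prdx1, a peroxiredoxin, had 274 and 374 CPM in tumour 1 and 200 and 328 in tumour 4 (log2 fold change 0.54 ± 0.13, adjusted p = 0.00535), with both high sums above both zero sums. It was called with cycling-class matching (adjusted p = 0.0358) and in non-cycling cells (adjusted p = 0.00552) and not with cluster matching (0.46, adjusted p = 0.156). Srxn1, which repairs over-oxidised peroxiredoxins, had 26.6 and 34.9 CPM and 34.4 and 75.3 CPM (0.71, adjusted p = 0.00936), and was called in none of these 3 fits.

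Further higher genes had no common role in the lists. Ociad2 had 28.7 and 47.1 CPM in tumour 1 and 49.8 and 91.6 in tumour 4 (log2 fold change 0.77, adjusted p = 0.00114). The uncharacterised 6330403K07Rik had 56.0 and 79.7 CPM and 36.5 and 79.9 CPM (0.72, adjusted p = 0.00151). Stx8, a syntaxin of endosome fusion, had 34.3 and 51.4 CPM and 28.8 and 55.3 CPM (0.68, adjusted p = 0.0131), and Qpct, which forms N-terminal pyroglutamate on peptides, had 17.7 and 26.5 CPM and 52.4 and 87.5 CPM (0.66, adjusted p = 0.0281). Stx8 (0.74, adjusted p = 0.0358) and Qpct (0.85, adjusted p = 0.00485) were called with cluster matching too. Resp18 (0.75, adjusted p = 0.0111), the sodium pump subunit Atp1b1 (0.53, adjusted p = 0.0108) and the steroid and fatty acid enzyme Hsd17b12 (0.53, adjusted p = 0.00707) completed those named by the rule.

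Opcml, Cxcl10 and S100b were lower and belong to neither cell cycle list. Opcml, a cell adhesion molecule of neurons and glia, had 118 CPM in zero and 65.7 in high cells of tumour 1 and 125 and 111 in tumour 4 (log2 fold change -0.57, adjusted p = 0.00857). The high sums lay below both zero sums, and the difference was called with cluster matching (-0.62, adjusted p = 0.0133) and in non-cycling cells (-0.81, adjusted p = 7.13e-06). Cxcl10, an interferon-induced chemokine, had 245 and 207 CPM and 236 and 146 CPM (-0.46, adjusted p = 0.0346). It was the one gene called among 21 listed secretory senescence genes with 3 tumours; with tumours 1 and 4 alone, 3 of the list were called higher and 2 lower, and in non-cycling cells 2 of 19 were higher and 1 lower. S100b, a glial calcium-binding protein, had 50.9 and 38.9 CPM and 179 and 109 CPM (-0.58, adjusted p = 0.0116).

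Several lower calls rested on few cells. Hspb1, a small heat shock protein, had 14.8 and 9.93 CPM in tumour 1 and 32.9 and 8.19 in tumour 4 (log2 fold change -1.19, adjusted p = 0.00451), with 26 of 58 and 26 of 64 zero-cell UMIs in 1 cell of each tumour. Its direction turned with a second pairing (0.22), at 4 or more UMIs per 10000 (0.71) and at 6 or more UMIs, where it was called higher (1.498, adjusted p = 0.0162). For the histone gene Hist2h3c2 (-1.01, adjusted p = 0.0142), 58 of the 102 zero-cell UMIs of tumour 4 came from 1 cell. Spint2, a protease inhibitor (-2.19, adjusted p = 0.0478), had few UMIs in tumours 1 and 4. It was counted at 7 and 2 UMIs in zero and high cells of tumour 1 and at 15 and 3 in tumour 4. Its sums in these tumours lay below the mean level that the naming rule asks for. Spint2 met that rule over 3 tumours only through the single cells of tumour 2, and its call there included them. Frat2, a Wnt pathway protein (-1.01, adjusted p = 0.00731), and the kinase Pim1 (-0.78, adjusted p = 0.0111) were lower too.

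The zero cells of tumour 4 carried more RNA of a few other cell types. Ependymal genes summed to 81.7 CPM in its zero and 5.63 in its high cells, in 10 and 11 cells, and erythroid genes to 82.7 and 3.07 CPM, in 4 cells of each class. Oligodendrocyte genes summed to 3297 and 2659 CPM there. In tumour 1 ependymal genes stood at 3.07 and 2.55 CPM and erythroid genes at 18.4 and 23.9. Without cells that held 2 or more UMIs of T, natural killer, vascular or red cell genes, 8 genes were higher and 40 lower; the part of ependymal RNA in the results was not tested.

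None of the engineered genes was called. H3f3a had 1443 CPM in zero and 1592 in high cells of tumour 1 and 1235 and 1410 in tumour 4 (log2 fold change -0.15 ± 0.56, adjusted p = 0.978 with 3 tumours; 0.15, adjusted p = 0.276 with tumours 1 and 4). Pdgfra, the receptor, had 125 and 119 CPM and 75.0 and 84.0 CPM (-0.01, adjusted p = 0.996). WPRE had 583 and 541 CPM and 797 and 734 CPM (-0.14, adjusted p = 0.871). None of these 3, nor Trp53 above, was called with 3 tumours or with tumours 1 and 4.

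Of 14 genes of PRC2 and of the enzymes that remove methyl groups from lysine 27, none was called with edgeR (3 at an unadjusted p under 0.05, all lower; 0 called by DESeq2), and the median log2 fold change was -0.25. Ezh2, the methyltransferase of the complex, had a value of -0.22 (adjusted p = 0.704). Suz12, a core subunit, had 30.7 and 22.1 CPM in tumour 1 and 36.5 and 19.97 in tumour 4 (-0.66, adjusted p = 0.110) and passed with tumours 1 and 4 (-0.64, adjusted p = 0.0437).

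Genes of energy metabolism stood slightly higher in the high cells without passing the test with 3 tumours. All 20 oxidative phosphorylation genes were higher in both tumours 1 and 4, a direction that 30.5% of all genes had, with a median log2 fold change of 0.17; 0 were called by edgeR with 3 tumours (2 at an unadjusted p under 0.05, both higher, and 0 by DESeq2) and 3 with tumours 1 and 4. Of 19 hypoxia and glycolysis genes 12 were higher in both tumours and 4 were called with tumours 1 and 4, Aldoa, Eno1, Pkm and Tpi1. The nuclear transcript Malat1 stood at 24649 CPM in zero and 20890 in high cells of tumour 1 and at 18823 and 15706 in tumour 4 (-0.27, adjusted p = 1.92e-05 with tumours 1 and 4). The median share of mitochondrial UMIs was 4.58% and 4.35% in zero and high cells of tumour 1 and 5.25% and 4.60% in tumour 4. The part of such differences in RNA quality in the results above was not tested.

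**Figure D5:**
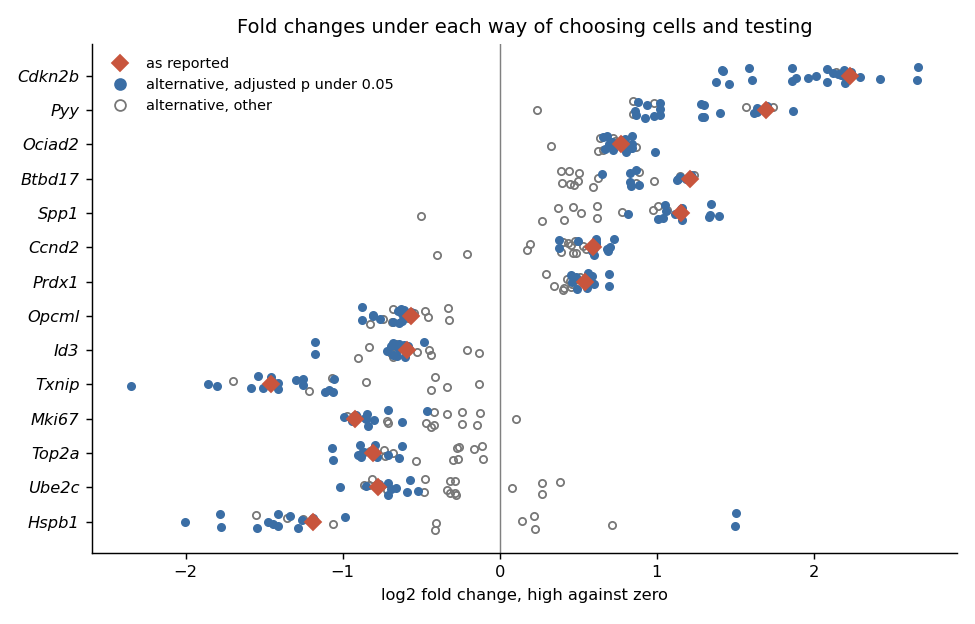
Log2 fold change, high against zero (x axis), of 14 genes (y axis) as reported (diamonds) and under alternative choices of cells or test (circles, filled where the adjusted p was under 0.05). The fits without tumour 1 and without tumour 4 are not drawn. Cdkn2b stays between 1.38 and 2.66 in the alternatives that gave it a value (none without tumour 1, and no adjusted p by DESeq2 over tumours 1 and 4), Prdx1, Ociad2 and Opcml keep their direction, and Ube2c, Mki67, Spp1, Ccnd2 and Hspb1 cross 0 in at least 1.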

How the data were processed

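Raw gene counts (UMIs) of 3 libraries were used as the authors deposited them, 1 library per animal; the submitters' processing notes name STAR 2.5.1, Cell Ranger 1.3.0 and the mm10 build, while the rule for calling barcodes cells was not given there. The members and gene lists were chosen with earlier results of these data known.

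Barcodes needed 500 genes and no more than 20% mitochondrial UMIs. Per 10000 UMIs they needed a sum under 3 over 6 myelin genes and under 15 over 6 myeloid genes. The 12 genes were left out of the tested members of the lists but not out of the summed levels. High and zero cells were paired 1 to 1 within a tumour by log2 depth (caliper 0.1) and summed. No doublet caller was applied; leaving out the cells with the highest doublet scores was an alternative. Sums were tested with edgeR 4.0.16 (quasi-likelihood, TMM, low counts filtered, tumour as a block, since both sums of a pair come from 1 animal; R 4.3.3) with Benjamini-Hochberg adjustment over all genes; DESeq2 1.42.0 was an alternative. The scripts were tested on simulated data. Named genes were to be the 10 highest and 10 lowest fold changes with an adjusted p under 0.05, a mean of at least 20 CPM and 1 sign in 3 tumours. As tumour 2 gave 1 pair, 9 genes met this; 20 that met it in tumours 1 and 4, and genes of the lists, were named after their values were seen.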

Additional observations from a re-analysis of the deposited data

Results flagged for a closer look

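Cdkn2a was also counted in cells outside the kept set. These cells entered only the fit without limits on myelin and myeloid genes. Groups in which more than 3 cells held 4 or more Cdkn2a UMIs are given. Among cells over the myelin limit only, 134 of 635 in tumour 1 (21.1%), 47 of 829 in tumour 2 (5.67%) and 643 of 2511 in tumour 4 (25.6%) held 4 or more Cdkn2a UMIs. In tumours 1 and 4 these shares were near those of the kept cells, 21.9% and 25.6%, and in tumour 2 the share was above the 1.13% of its kept cells. Among cells over the myeloid limit, 12 of 161 in tumour 1 (7.45%) and 14 of 88 in tumour 4 (15.9%) held 4 or more. The part of doublets and of free RNA in these counts was not tested.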

How the results depend on the processing

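Counts of called genes are given as higher and lower, against 29 and 63. The fit had the tumour as its replicate block, both sums of a pair being from 1 animal; without the block edgeR called 0 and 0 (21 and 52 genes at an unadjusted p under 0.05), and the DESeq2 Wald test, with the block, called 1 and 0 (30 and 68). Leaving out 1 tumour at a time gave 0 to 156 higher and 0 to 127 lower; no single tumour could be left out without changing the count by over 1.5 times. Other counts that moved were 10 higher with no matching, 5 and 26 thinned to 3000 UMIs, 8 and 18 matched for cycling class, 7 and 9 matched for cluster, 11 and 26 with 2 or more UMIs as high, 28 lower with 6 or more, 13 and 21 under stricter limits, 16 higher at no more than 10% mitochondrial, and 9 higher with DESeq2 size factors. Lifting the limits on myelin and myeloid genes gave 3 (0.0228% of 13132) and 160 (1.22%). Tumour 2 gave 0 pairs under stricter limits and in non-cycling cells, so those 2 fits held tumours 1 and 4. Chosen after seeing the data were the non-cycling cells, the cells without T, natural killer, vascular or red cell transcripts (8 and 40), and the settings over tumours 1 and 4 alone. Over tumours 1 and 4 the depth-matched fit gave 156 and 127, with which the other settings over these tumours compare. Those gave 36 and 156 with no matching, 115 and 156 with a different seed, and 36 and 129 thinned to 3000 UMIs. Matching also for cycling class gave 4 and 7, and for cluster 55 and 85. Counts were 46 and 74 with 2 or more UMIs, 83 and 74 with 6 or more, and 13 and 9 by DESeq2.

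The high-cell share of tumour 1 became 52.1% at 2 or more UMIs, 9.20% at 6 or more and 7.52% at 4 or more per 10000. That of tumour 4 became 52.6%, 12.3% and 12.99%, with 21.5% under stricter limits and 29.9% at no more than 10% mitochondrial. That of tumour 2 became 5.08% at 2 or more UMIs and 0% under stricter limits. The cycling share of high minus zero cells was -15.0 percentage points in tumour 1 and -22.7 in tumour 4. It was 0.683 and -11.4 without thinning, -8.87 and -16.8 with 10 or more UMIs, and 3.08 and -4.51 with no matching.

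Directions turned for some genes, as log2 fold changes. With no matching Mad2l1 had 0.11, Ccnd2 -0.40 and Gfap -0.44, and over tumours 1 and 4 Ube2c had 0.27, S100a11 -0.019 and Mad2l1 0.14. Thinned to 3000 UMIs, Ube2c had 0.27, S100a11 -0.13, Hist2h3c2 0.059, Mad2l1 0.19, Ccnd2 -0.21, Gfap -0.012 and Mxd3 0.54, and over tumours 1 and 4 Ube2c 0.38, S100a11 -0.15, Hist2h3c2 0.056, Mad2l1 0.21 and Mxd3 0.56. In non-cycling cells Ube2c had 0.077, Hist2h3c2 0.18 and Mki67 0.10. Hspb1 had 0.22 with a different seed in both fits, 1.498 with 6 or more UMIs (adjusted p = 0.0162, edgeR; 1.505 over tumours 1 and 4), 0.71 per 10000 UMIs and 0.14 without T, natural killer, vascular or red cell transcripts. Cxcl10 had 0.013 with 2 or more UMIs, and with no limits Spp1 had -0.50 and S100b 0.24. Leaving out 1 tumour gave Ccnd2 -0.73 to 0.61, with -0.70 without tumour 1 and -0.73 without tumour 4, and Gfap -0.17 (without tumour 1) to 0.58. The causes were not tested. Cdkn2b was below the low-count filter without tumour 1, and lost its call without tumour 4 (2.26, adjusted p = 1.00, edgeR) and without the block (2.14, adjusted p = 0.115). Depth limits the rest: a zero cell of median depth allows up to 236 CPM of Cdkn2a in tumour 1, and genes of few UMIs rest on few cells.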

Other observations

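Several gene groups had no called member in the matched cells of the 3 tumours. Of 25 interferon-induced genes 0 were called by edgeR (1 higher and 2 lower at an unadjusted p under 0.05). In tumours 1 and 4 this depended on how depth was handled: 1 of the 25 was called higher in the matched cells, 7 were called lower with no matching, and 8 were called lower, with a median log2 fold change of -0.35, with all cells thinned to 3000 UMIs. Over all genes, 156 of 11237 were called higher in the matched cells (1.39%). With no matching 156 of 12678 genes were called lower, and with thinning 129 of 9926. Of 13 genes of class I antigen presentation 0 were called by edgeR with 3 tumours (0 at that p). Of 25 ribosomal protein genes 0 were called (0 at that p), and 22 were lower in both tumours 1 and 4, where 27.8% of all genes were. Their median log2 fold change was -0.94 with 3 tumours and -0.11 with tumours 1 and 4. Of 16 genes of the integrated stress response, which curbs translation under amino acid or protein-folding stress, 10 were lower in both tumours and none was higher in both. Over all genes those shares were 27.8% and 30.5%. Of the 16, 0 were called (4 lower at that p). DESeq2 called none of these with 3 tumours.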
